A study of Mus musculus with 6 samples.

Results

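NF-kappaB is a family of transcription factors built from Rel subunits that wait in the cytoplasm, bound to IkappaB proteins, until a kinase complex marks the IkappaB for destruction. Tumour necrosis factor, interleukins and microbial products start this through receptors and adaptors, and the freed subunits switch on cytokines, adhesion molecules and the inhibitors that end the response, among them the IkappaB gene Nfkbia and the ubiquitin-editing enzyme gene Tnfaip3. In the mammary gland the pathway is known for its part in ductal growth, lactation and the reaction of epithelium to infection.

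The 47 genes described here are the subunits, regulators and receptors of this pathway and cytokine and adhesion genes that it is known to switch on, without chemokines. All 47 had a probe on the array, 63 probes in all out of 55681, matched by RefSeq transcript, and 42 of them were among the 15680 genes bright enough to be tested. All samples were sorted from mammary tissue of virgin mice of the C57/B6 strain with the genotype lgr5-egfp-ires-creert2. This allele puts EGFP and an inducible Cre under the control of Lgr5, which encodes an R-spondin receptor known from intestinal and skin stem cells. Both groups carried that allele and both lay in the Lin-CD24+CD29hi gate, named P4; EGFP then split them into Lgr5-positive and Lgr5-negative cells, with 3 arrays each. Each array set 1 sample, labelled with Cy5, against a universal reference RNA from a mix of 11 mouse cell lines, labelled with Cy3. The labels do not say whether replicates came from separate mice, pools or sorts, so p-values measure the spread between these samples, which may in part be technical.

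A value is the log2 ratio of sample to reference, and a fold change is the Lgr5-positive minus the Lgr5-negative mean of it; ratios of different genes are not levels and are not set against each other. Lgr5 itself was at 4.24, 5.36 and 5.01 on the positive arrays of replicates 1 to 3 and at 2.84, 4.04 and 3.31 on the negative ones, higher by 1.47 on average and in the labelled direction in all 3 pairs, with transcript measured in both groups. Median Cy5 signal was 137 to 169 on Lgr5-positive and 200 to 278 on Lgr5-negative arrays, against a background of 64 to 76, and 50.9% to 74.4% of probes were well above background. All 10 basal markers tested were well above background on each array, with a mean log2 ratio of 3.53 to 4.27.

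Most of the tested NF-kappaB genes read lower in Lgr5-positive cells, and those that passed a test all fell, among them Tnfaip3, Tnip1 and Nfkbia, which encode inhibitors of the pathway, and the cytokine genes Il33, Ltb, Csf3 and Il6. Of the 4 kinase genes and the 5 TNF and Toll-like receptor genes tested, 0 passed in either limma fit, with 3 at an unadjusted p under 0.05 with the block. Of the 42 tested members 33 had a negative fold change, against 48% of all genes, and the median was -0.41, against 0.010 over all genes. In limma with the group as the only term, 1 member passed at an adjusted p under 0.05 (Nfkbie, which fell), where 0.612% of all genes passed and 0.587% fell; 14 members, all negative, had an unadjusted p under 0.05, against 8.2% of all genes in either direction. Same-numbered arrays of the 2 groups deviated together, so the replicate number was also used as a block. In that fit 13 members fell (31% of those tested) and none rose, with 0 higher at an unadjusted p under 0.05 as well. Of all genes 7.72% passed, 5.61% falling and 2.1% rising, and 1960 were lower and 1387 higher at an unadjusted p under 0.05. Members and the other lists were chosen with earlier results of these data known, so their shares beside those of all genes are a description. The 13 were Il33, Ltb, Tnfaip3, Tnip1, Il1r1, Traf1, Csf3, Nfkbie, Vcam1, Nfkbia, Cflar, Il6 and Rel. The groups did not overlap in 12 members, all lower, where 8.14% of all genes lay apart in this direction and 4.06% in the other. In all 3 pairs 26 members were lower and 3 higher, against 21.8% and 22.5% of all genes. The blocked count was 18 without pair 1, 6 without pair 2 and 10 without pair 3. With the group alone it was 9 without Lgr5-negative replicate 1, 3 without pair 1, and 0 when any other array or pair was left out. The share of all genes that passed with the group alone also moved. It was 0% without Lgr5-positive replicate 1 or 3 and 0.491% without Lgr5-positive replicate 2, so these counts do not single out the members.

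**Figure D1:**
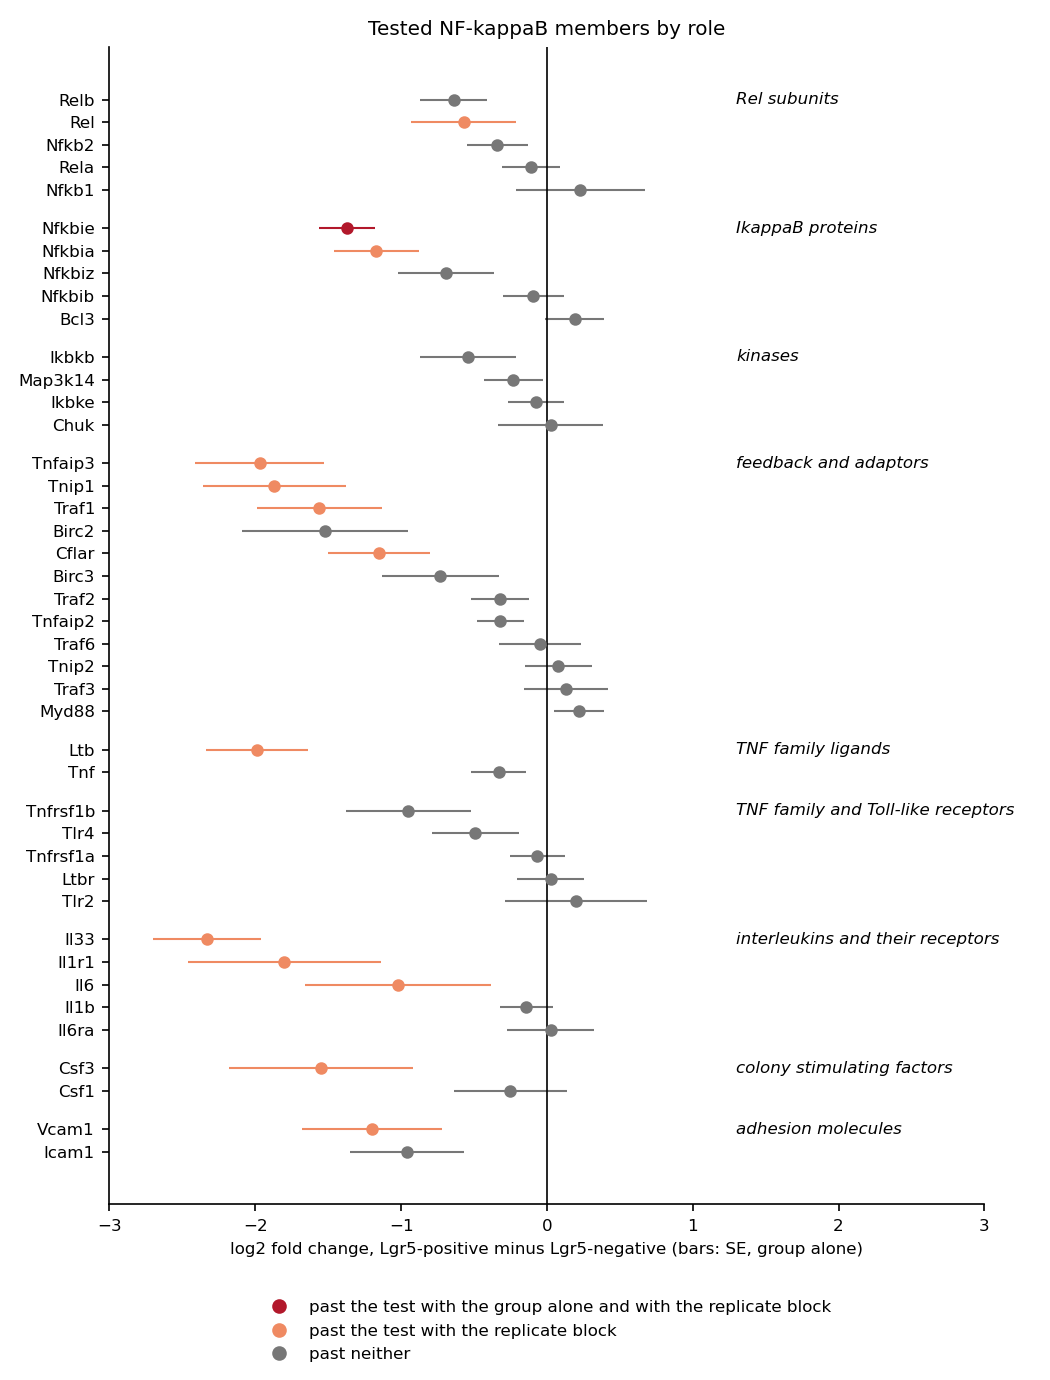
Log2 fold change (x axis) of the 42 tested members, one point per gene, grouped by role, with the SE of the fit with the group alone as bars. Red marks Nfkbie, the member past the test in both fits, orange the members past it with the replicate block only, and grey the others; values run from -2.33 for Il33 to 0.23 for Nfkb1.

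Markers of other cell types also differed between the groups on these arrays. Of 13 endothelial markers tested, 4 fell with the group alone and 10 with the block, Tie1 included in both. Of all genes 0.587% fell with the group alone and 5.61% with the block. Kdr read 0.18, higher in all 3 pairs, and did not pass. The mean log2 ratio of the 13 endothelial markers lay between 1.25 and 2.29 on Lgr5-positive and between 3.14 and 3.72 on Lgr5-negative arrays. Of these markers 10 were well above background on all 6 arrays, Pecam1 and Cdh5 included, while on Lgr5-positive arrays Tie1 was so on none, Tek on 1 and Sox18 on 2. Of 11 macrophage and dendritic markers 2 fell with the block, Mrc1 and Cd74, with list means of -0.68 to -0.10 and -0.56 to 0.063. Of these 8 were well above background on all 6 arrays, Ptprc, Adgre1 and Csf1r included. Mrc1 was so on no Lgr5-positive array, and Lyz2, which was not tested, on none of the 6. Tie1 and Mrc1 were thus kept only through Lgr5-negative arrays, and their calls give no support. Of 8 lymphocyte markers 0 passed in the blocked limma fit (0 lower and 1 higher at an unadjusted p under 0.05), with list means of 0.43 to 0.83 and 0.16 to 0.69. Of 9 fibroblast markers 4 fell and 2 rose with the block, with list means of -0.15 to -0.044 and 0.0018 to 0.32, of 7 pericyte markers 4 fell (-0.36 to 0.025 and 0.35 to 0.76), and of 13 luminal markers 7 fell (0.27 to 0.85 and 0.94 to 1.64). Cd14, 1 of these 7, is also counted among the other pathway genes below. The luminal markers Krt8, Krt18 and Epcam read 0.075, 0.025 and 0.31 and did not pass. Of the 10 basal markers 4 rose with the block (2.1% of all genes rose), with means of 4.07 to 4.27 on the Lgr5-positive and 3.53 to 3.81 on the Lgr5-negative arrays. What part these cells had in the NF-kappaB values was not tested, and in RNA from many cells, fewer cells of a type and less RNA per cell cannot be told apart.

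The promoters of the members that fell are shown here because several carry the sequence that NF-kappaB binds. RefSeq's table for GRCm38.p6 held promoter windows, from 250 bases before to 50 after an annotated start, for 40 of the 47 members. The kappaB consensus, a motif of 10 bases, was searched on both strands, and overlapping matches were counted as 1. It was found in 8 of the 11 members with a window that fell with the block and in 5 of the 24 that were tested and did not pass, against 5.14% of all 27025 genes with a window; by window it was 32.7% of the members' windows against 4.51% of all 32851. The windows of 7 members that fell and hold a match are printed 5′ to 3′ with the match in capitals.
Nfkbie, chr17:45555450-45555749 (plus strand): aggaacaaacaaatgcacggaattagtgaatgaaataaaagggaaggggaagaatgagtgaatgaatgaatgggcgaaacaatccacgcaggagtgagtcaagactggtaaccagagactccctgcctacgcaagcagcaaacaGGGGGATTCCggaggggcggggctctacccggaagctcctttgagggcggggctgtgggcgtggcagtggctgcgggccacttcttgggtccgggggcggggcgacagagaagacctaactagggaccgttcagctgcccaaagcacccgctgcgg
Nfkbia, chr12:55492598-55492897 (minus strand): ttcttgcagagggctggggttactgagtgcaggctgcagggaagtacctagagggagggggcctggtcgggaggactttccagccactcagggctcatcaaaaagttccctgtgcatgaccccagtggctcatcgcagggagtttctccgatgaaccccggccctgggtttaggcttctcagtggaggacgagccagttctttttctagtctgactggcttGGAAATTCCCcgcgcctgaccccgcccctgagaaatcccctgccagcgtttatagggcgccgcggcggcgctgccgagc
Rel, chr11:23770920-23771219 (minus strand): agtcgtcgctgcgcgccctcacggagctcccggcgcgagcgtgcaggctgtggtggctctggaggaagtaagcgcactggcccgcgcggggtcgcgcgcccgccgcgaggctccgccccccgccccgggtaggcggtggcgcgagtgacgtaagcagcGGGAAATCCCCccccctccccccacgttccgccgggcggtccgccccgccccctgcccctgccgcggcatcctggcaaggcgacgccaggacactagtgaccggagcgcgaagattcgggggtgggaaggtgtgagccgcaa
Tnfaip3, chr10:19015361-19015660 (minus strand): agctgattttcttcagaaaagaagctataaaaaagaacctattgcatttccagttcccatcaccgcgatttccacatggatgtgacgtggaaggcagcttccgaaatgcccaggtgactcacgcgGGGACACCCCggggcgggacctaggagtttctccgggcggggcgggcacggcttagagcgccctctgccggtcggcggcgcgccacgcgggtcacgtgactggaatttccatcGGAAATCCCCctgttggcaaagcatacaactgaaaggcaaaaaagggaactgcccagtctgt
Tnip1, chr11:54962891-54963190 (minus strand): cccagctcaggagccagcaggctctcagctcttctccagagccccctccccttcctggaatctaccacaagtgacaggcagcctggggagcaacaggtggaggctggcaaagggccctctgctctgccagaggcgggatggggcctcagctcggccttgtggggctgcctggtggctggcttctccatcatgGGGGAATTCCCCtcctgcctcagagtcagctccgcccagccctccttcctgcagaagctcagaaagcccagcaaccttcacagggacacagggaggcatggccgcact
Ltb, chr17:35194257-35194556 (plus strand): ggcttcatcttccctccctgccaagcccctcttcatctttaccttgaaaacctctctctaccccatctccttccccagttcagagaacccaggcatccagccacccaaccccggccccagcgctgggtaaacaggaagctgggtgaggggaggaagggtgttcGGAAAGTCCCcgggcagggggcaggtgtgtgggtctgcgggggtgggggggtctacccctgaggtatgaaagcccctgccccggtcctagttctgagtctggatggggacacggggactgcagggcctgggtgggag
Il6, chr5:30012864-30013163 (plus strand): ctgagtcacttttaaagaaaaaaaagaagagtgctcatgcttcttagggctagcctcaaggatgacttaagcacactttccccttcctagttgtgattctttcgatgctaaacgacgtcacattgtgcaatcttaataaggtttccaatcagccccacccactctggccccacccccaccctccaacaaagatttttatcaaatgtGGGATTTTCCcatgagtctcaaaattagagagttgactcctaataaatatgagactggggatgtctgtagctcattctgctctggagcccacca
In these windows the match began 106 bases before the start in Nfkbie, 29 in Nfkbia, 92 in Rel, 58 in Tnip1, 87 in Ltb and 44 in Il6, and Tnfaip3 had 2 matches, 125 and 12 bases before its first annotated start. The match of Rel covered 11 bases and that of Tnip1 12 bases, where the motif is met on both strands. The eighth gene, Il1r1, had its match 232 bases before the second of its annotated starts. Cflar, Traf1 and Il33 fell without a match in their windows, which says only that these letters are absent there. A match did not go with a fall in each case, as the windows of 2 members that did not pass show:
Nfkb2, chr19:46304487-46304786 (plus strand): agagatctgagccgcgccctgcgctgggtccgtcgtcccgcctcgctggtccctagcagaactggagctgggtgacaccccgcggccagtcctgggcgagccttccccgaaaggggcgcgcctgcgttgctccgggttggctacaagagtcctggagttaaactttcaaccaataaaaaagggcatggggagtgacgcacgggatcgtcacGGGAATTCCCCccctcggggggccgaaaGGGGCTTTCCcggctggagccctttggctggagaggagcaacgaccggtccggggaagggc
Tlr2, chr3:83841559-83841858 (minus strand): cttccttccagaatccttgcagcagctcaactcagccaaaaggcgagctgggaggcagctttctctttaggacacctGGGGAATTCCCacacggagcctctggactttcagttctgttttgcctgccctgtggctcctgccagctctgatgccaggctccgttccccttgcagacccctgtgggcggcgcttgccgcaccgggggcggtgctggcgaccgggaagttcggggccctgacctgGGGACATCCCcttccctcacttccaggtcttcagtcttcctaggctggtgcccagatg
The printed window of Nfkb2 had 2 matches, 39 and 11 bases before the start, and Tlr2 had 2 matches, 173 and 8 bases before the start. Bcl3, Csf1 and Traf3 also had a match and did not pass. The members were chosen as genes of this pathway, many of them as its targets, so their share of matches is a description, and a match is neither a bound site nor a cause.

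**Figure D2:**
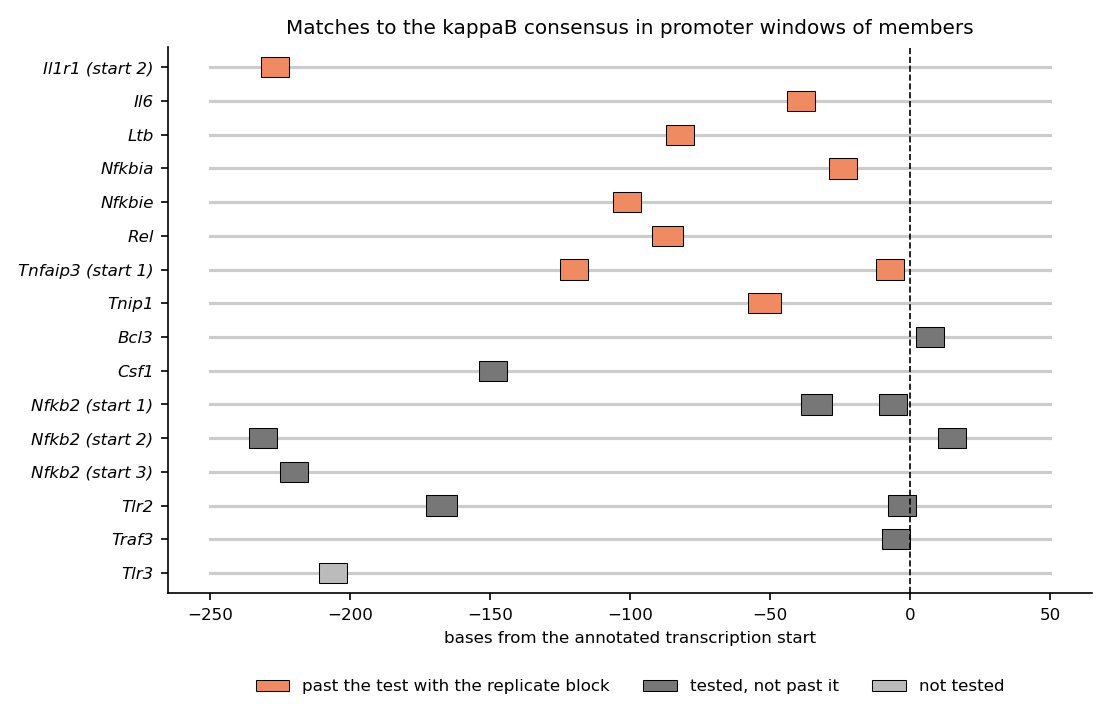
Position of each match to the kappaB consensus (boxes, x axis in bases from the annotated start, dashed line) in the promoter windows of the 14 members with a match, 1 line per window. Orange windows belong to the 8 members that fell with the replicate block, dark grey to the 5 tested members that did not pass, and light grey to Tlr3, which was not tested.

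Among the 5 Rel subunits only Rel, which encodes c-Rel, passed, and only with the block. It was at 0.21, 0.90 and 1.25 on Lgr5-positive arrays 1 to 3 and at 0.74, 1.67 and 1.66 on the Lgr5-negative ones. The groups overlapped, yet the Lgr5-positive array was the lower one in each pair, for a fold change of -0.57 (SE 0.36, adjusted p = 0.961 with the group alone; SE 0.13, adjusted p = 0.044 with the block). Its probe was well above background on only 2 arrays of each group, and the blocked call was lost in 6 of 10 other settings that kept all arrays and without any 1 pair. Rela, which encodes the main activating subunit, was at 0.82, 0.84 and 1.15 in Lgr5-positive and 0.85, 0.95 and 1.33 in Lgr5-negative cells. These ranges overlap almost fully, and the fold change was -0.11 (SE 0.20, adjusted p = 1 with the group alone, and adjusted p = 0.661 with the block). Nfkb1, which encodes its usual partner, was at -0.39, 0.45 and 1.05 against -0.54, 0.53 and 0.41, so that replicates differed more than groups did (0.23, SE 0.44, adjusted p = 1 with the group alone). With the block the adjusted p of Nfkb1 was 0.472, and a second probe of it read -0.11. Relb and Nfkb2, the subunits of the slower, non-canonical branch, had fold changes of -0.64 and -0.34. Relb did not overlap between the groups and read -0.69 on a second probe, but neither passed in either fit.

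The IkappaB genes divided by member. Nfkbie, which encodes IkappaB-epsilon, an inhibitor that is itself induced by NF-kappaB, was at -0.13, 0.25 and -0.22 on the Lgr5-positive arrays and at 1.23, 1.31 and 1.47 on the Lgr5-negative arrays. Every positive array lay far below every negative one. It fell by 1.37 on the log2 scale, or 2.58-fold (SE 0.19, adjusted p = 0.045 with the group alone; 0.0041 with the block). Over the 11 other settings of the group-alone fit that kept all arrays, the adjusted p ranged from 0.022 to 0.124 and passed in 5, and of 9 fits that left out an array or a pair it passed only without Lgr5-negative replicate 1 (0.034). In the blocked fit Nfkbie passed in all 11 other settings and without each pair.

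Nfkbia, which encodes IkappaB-alpha, the fastest inhibitor of the pathway, was at 2.51, 2.63 and 2.69 in Lgr5-positive cells against 3.33, 3.59 and 4.42 in Lgr5-negative cells. The Lgr5-positive values were nearly alike (SD 0.093, against 0.57), and the highest of them lay below the lowest negative value. Nfkbia fell 2.25-fold with the block (-1.17, SE 0.19, adjusted p = 0.016) and not with the group alone (SE 0.29, adjusted p = 0.204), and not without pair 2. Nfkbiz and Bcl3, which encode nuclear IkappaB-like proteins that tune target genes, were at -0.69 and 0.19, and Nfkbib, which encodes the less inducible IkappaB-beta, at -0.092; none of these passed.

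Of the 4 kinase genes tested, 0 passed in limma in either fit, with 1 at an unadjusted p under 0.05 in the blocked fit. That was Ikbkb, the catalytic kinase of the canonical branch, at -0.54 (adjusted p = 0.063 with the block). Chuk, its sister kinase, was at 0.027, and Ikbke, an inducible relative, at -0.074. Map3k14, which starts the non-canonical branch, was at -0.23, and at 0.0019 on a second probe. Ikbkg, the scaffold of the complex, was well above background on 1 array of each group and was not tested.

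Of 12 feedback inhibitors and survival adaptors, 4 fell with the block, a share of 33.3%, near the 31% of all members tested. Tnfaip3 was at 0.39, 1.44 and 1.16 on Lgr5-positive and at 2.11, 3.18 and 3.62 on Lgr5-negative arrays. There was no overlap, and the Lgr5-positive array was lower by 1.72, 1.73 and 2.45 in pairs 1 to 3. The fall was 3.91-fold (-1.97, SE 0.17, adjusted p = 0.0021 with the block; SE 0.44, adjusted p = 0.151 with the group alone), and with the block it passed in all 11 other settings and without each pair. Tnip1, whose protein binds that of Tnfaip3 and helps to restrain the pathway, was at -0.053, 0.17 and 0.072 against 0.88, 1.95 and 2.96. All Lgr5-positive values sat close together (SD 0.11), whereas the Lgr5-negative values spread widely (SD 1.04). It fell 3.65-fold with the block (-1.87, SE 0.33, adjusted p = 0.020; 0.224 with the group alone) and by a similar amount on a second probe (-1.97), but the call was lost without pair 2.

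Traf1, an inducible adaptor of TNF receptors, was at -0.0023, 0.20 and -0.0084 in Lgr5-positive and 0.65, 1.76 and 2.45 in Lgr5-negative cells. Again the positive arrays were nearly alike and the negative ones were not. Its fold change was -1.56 (SE 0.31, adjusted p = 0.030 with the block; SE 0.43, adjusted p = 0.259 with the group alone), and it did not pass without pair 2. Cflar, which encodes the inhibitor of caspase-8 known as c-FLIP, was at -0.075, 0.12 and 0.16 against 0.44, 1.36 and 1.86, with no overlap. The fold change of Cflar was -1.15 (SE 0.22, adjusted p = 0.026 with the block, lost without pair 2; SE 0.35, adjusted p = 0.336 with the group alone), and dimmer probes of another of its transcripts gave -0.83 and -0.11. Birc2, which encodes an inhibitor-of-apoptosis protein that tags signalling partners with ubiquitin, was at -0.56, -0.77 and -0.34 against -0.16, 0.77 and 2.26. Although its groups did not overlap, pair 1 differed by only -0.40 and pair 3 by -2.60, and Birc2 did not pass (-1.52, adjusted p = 0.055 with the block), although it did without pair 1 (0.0016) and in 5 of the 11 other blocked settings that kept all arrays. Its neighbour Birc3 (-0.73) was well above background on only 3 arrays and did not pass.

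The remaining 6 adaptors and targets of this group did not pass. Traf2 and Tnfaip2 were at -0.32 each, with a second Traf2 probe at -0.052 and a second Tnfaip2 probe at -8e-05. Traf6, Tnip2, Traf3 and Myd88, the adaptor that Toll-like receptors share, were between -0.046 and 0.22.

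Of the 2 TNF family ligands tested, 1 fell with the block. Ltb, which encodes a membrane-bound ligand that organises lymphoid tissue, was at -0.53, -0.61 and -1.64 on Lgr5-positive and at 1.21, 0.63 and 1.33 on Lgr5-negative arrays. The groups were far apart, with pair differences of -1.75, -1.24 and -2.98. Ltb fell 3.97-fold with the block (-1.99, SE 0.30, adjusted p = 0.012), in all 11 other settings and without each pair, but not with the group alone (SE 0.35, adjusted p = 0.081). Tnf was at -0.33 and did not pass, and Lta was below that limit on all 6 arrays. Ltbr, the receptor of the Ltb protein, was at 0.027. Tnfrsf1a, the broadly expressed TNF receptor, was at 0.91, 1.27 and 0.95 against 0.88, 1.26 and 1.18, values that overlap. Its fold change was -0.066 (SE 0.19, adjusted p = 1 with the group alone, and adjusted p = 0.816 with the block), with -0.28 on a second probe. The second TNF receptor gene, Tnfrsf1b, was at -0.95 with its probe above background on 2 arrays of each group (adjusted p = 0.071 with the block). Among Toll-like receptors, Tlr2 was at 0.20 and Tlr4 at -0.49, and Tlr3, whose probe cleared background on no Lgr5-positive and on 2 Lgr5-negative arrays, read -0.65 and was not tested. In all, 0 of 5 tested receptors of these families passed in limma in either fit, with 2, Tnfrsf1b and Tlr4, at an unadjusted p under 0.05 in the blocked fit.

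Of the 5 tested interleukin and receptor genes, 3 fell with the block. Il33, an alarmin stored in nuclei of endothelial and epithelial cells, had the lowest fold change of all members. It was at -1.78, -1.60 and -1.39 in Lgr5-positive cells and at -0.11, 0.98 and 1.34 in Lgr5-negative cells, without overlap. The fall was 5.02-fold (-2.33, SE 0.21, adjusted p = 0.0023 with the block; SE 0.37, adjusted p = 0.061 with the group alone) and passed in all 11 other blocked settings and without each pair. Il1r1, the signalling receptor of interleukin-1, was at -1.53, -0.65 and -0.79 against -0.74, 1.33 and 1.87. The lowest Lgr5-negative array lay within the positive range, and pairs 1 to 3 differed by -0.78, -1.98 and -2.66. The fold change of Il1r1 was -1.80 (SE 0.32, adjusted p = 0.021 with the block; SE 0.66, adjusted p = 0.475 with the group alone), and the call was lost without pair 2.

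Il6, an inflammatory cytokine, was far above the reference RNA in both groups, at 3.49, 5.63 and 3.50 on Lgr5-positive and at 4.74, 6.04 and 4.89 on Lgr5-negative arrays. The groups overlapped because both arrays of replicate 2 were high, and within pairs the Lgr5-positive array was lower by 1.26, 0.41 and 1.38. Its fold change of -1.02 passed with the block (SE 0.20, adjusted p = 0.031), not with the group alone (SE 0.64, adjusted p = 0.963) and not without pair 1 or pair 3. Csf3, the granulocyte growth factor, had a like pattern, at 1.55, 3.84 and 2.76 against 3.38, 4.69 and 4.73. There too the groups overlapped and each pair had one direction. It fell with the block (-1.55, SE 0.22, adjusted p = 0.0098), also without each pair, and not with the group alone (SE 0.63, adjusted p = 0.566). Il1b (-0.14) and Il6ra (0.025) did not pass, Il1a cleared background on none of the 6 arrays, and Csf2 did so on 1 array per group. Csf1, the macrophage growth factor, was at -0.25 on its brightest probe and did not pass, but at -1.02 and -1.08 on 2 probes of another transcript, which were not tested.

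The adhesion genes Vcam1 and Icam1, whose proteins hold leukocytes to activated endothelium, were both lower in each pair. Vcam1 was at 0.19, 1.05 and 0.29 in Lgr5-positive and 0.65, 2.24 and 2.24 in Lgr5-negative cells. The groups overlapped through Lgr5-negative replicate 1. Vcam1 fell with the block (-1.20, SE 0.26, adjusted p = 0.040; SE 0.48, adjusted p = 0.546 with the group alone), with -0.97 on a second probe, but not without pair 2 or pair 3. Icam1 was at -0.96 and did not pass (adjusted p = 0.077 with the block). On the same arrays 10 of the 13 endothelial markers fell with the block, Tie1 included, as given above, and a link with the adhesion genes was not tested.

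**Figure D3:**
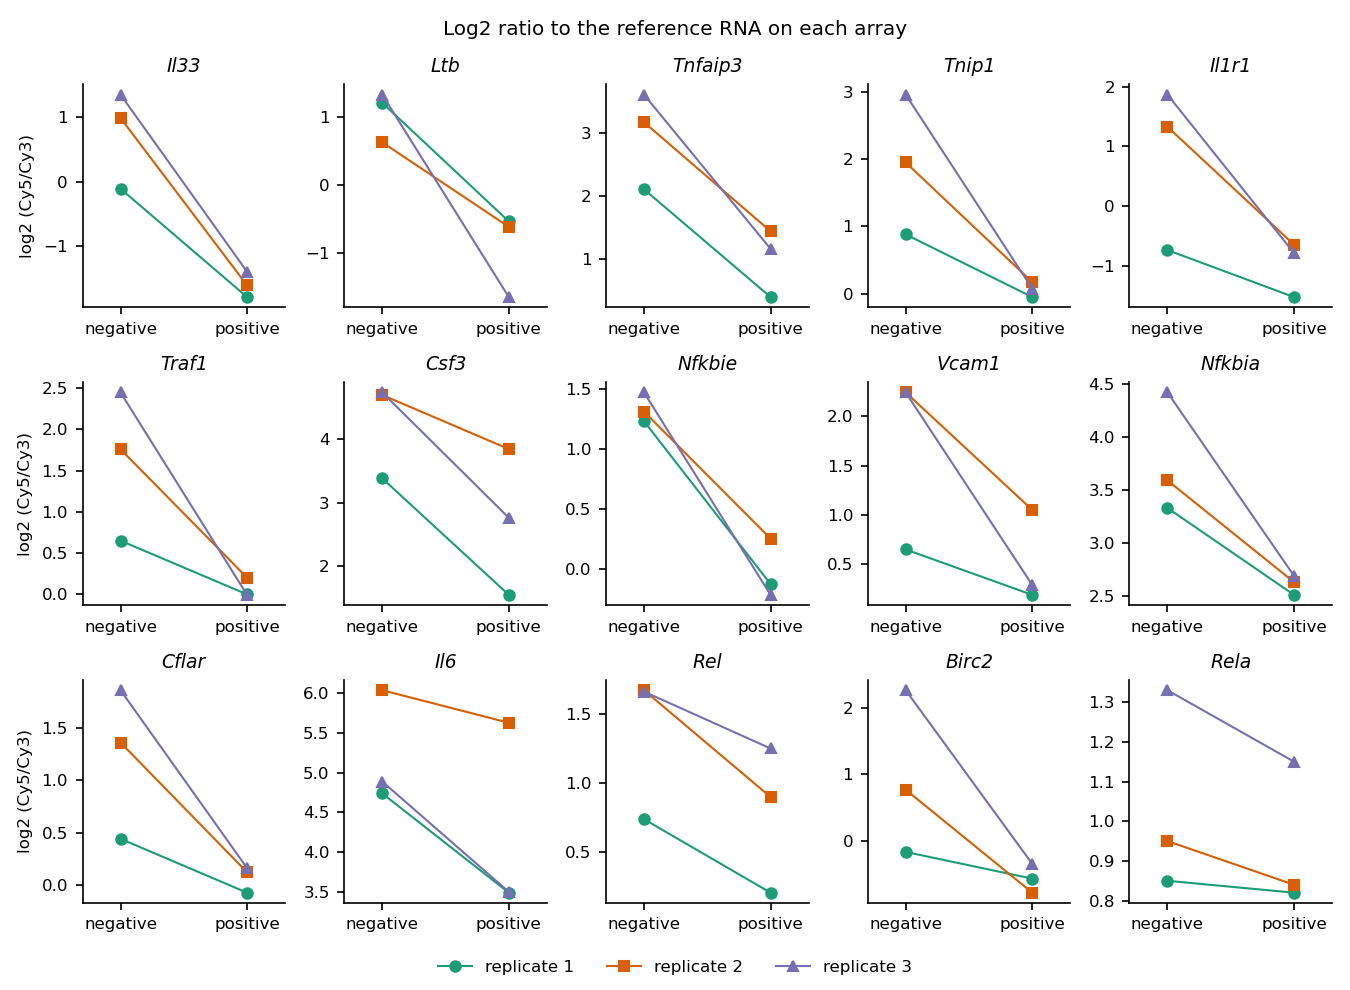
Log2 ratio to the reference (y axis, a scale of its own in each panel) on the Lgr5-negative and Lgr5-positive array of each replicate, joined by a line, for the 13 members that fell with the replicate block and for Birc2 and Rela. The positive array is the lower one in every pair; Tnip1, Traf1 and Cflar lie close together on the Lgr5-positive arrays and apart on the Lgr5-negative ones.

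The size of the difference varied between pairs. The median over the 42 members was -0.18, -0.36 and -0.67 in pairs 1, 2 and 3, with all genes at 0.037, -0.014 and -0.0017. Pair 3 gave the lowest difference of the 3 in 29 of the 42 members (69%) and in 12 of the 13 that fell with the block, against 37.5% of all genes. The exception among the 13 was Rel, lowest in pair 2. The endothelial list also had its lowest median in pair 3 (-1.64, -1.40 and -2.50). So did the luminal list (-0.62, -0.86 and -0.92) and the lymphocyte list (0.092, 0.32 and -0.19). The macrophage and dendritic list stayed at 0.015, 0.026 and -0.011, with pair 3 lowest in 63.6% of its genes. The pericyte, fibroblast and basal lists did not have their lowest median in pair 3. The SD over the 3 Lgr5-negative arrays exceeded that over the Lgr5-positive ones in 26 of 42 members (61.9%), with medians of 0.53 and 0.25. Among all genes this was so in 57.1%, with medians of 0.30 and 0.27. It was so in 9 of the 13 members that fell with the block (69.2%) and in 71.2% of all 880 genes that fell with it, whose medians were 0.51 and 0.32.

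**Figure D4:**
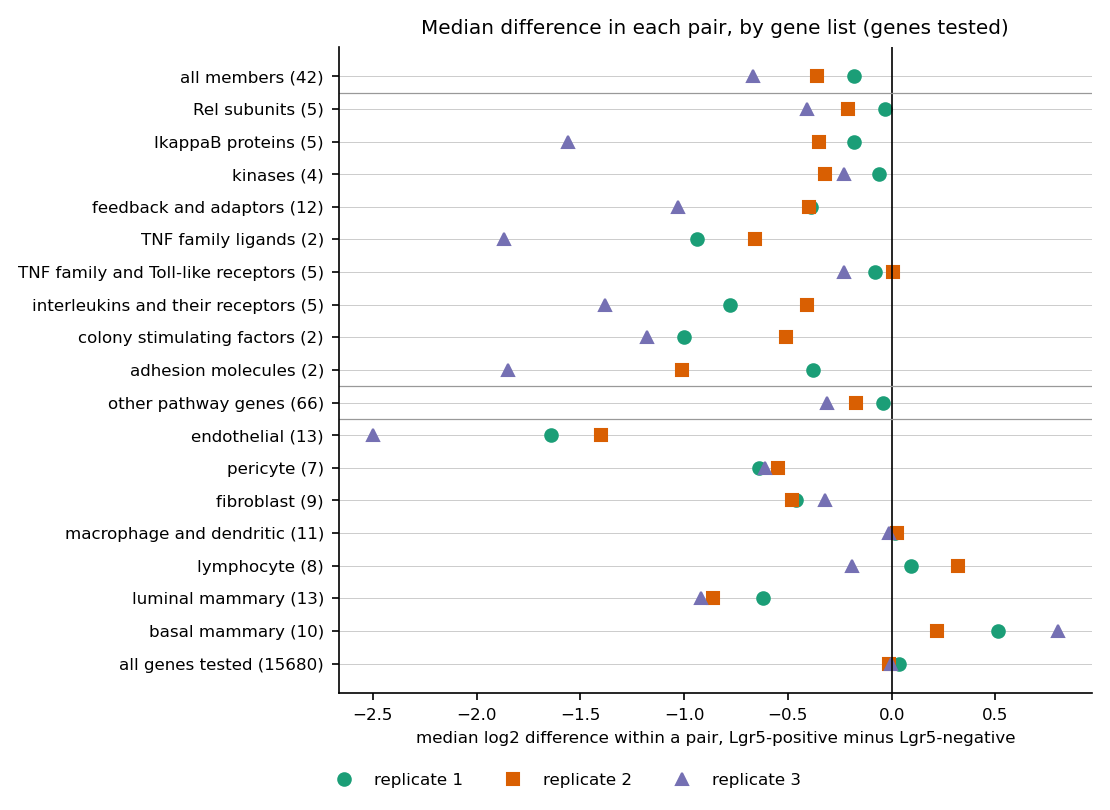
Median log2 difference within each pair (x axis; circle, square and triangle for replicates 1, 2 and 3) for all members, the members by role, other genes of the pathway, the cell type marker lists and all genes, with the number tested in brackets. Members reach -0.67 in replicate 3, endothelial markers -2.50, and all genes stay near 0.

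A further 71 genes of the pathway were listed by their known roles. Of the 66 tested, 0 passed in limma with the group alone. At an unadjusted p under 0.05 in that fit, 8 were lower and 2 higher. Of all 15680 genes, 977 were lower and 308 higher at that limit. With the block 10 fell (15.2%) and 2 rose, where 5.61% of all genes fell and 2.1% rose. The 10 include Tnfsf11 and Il15, kept only through Lgr5-negative arrays, so their share is not read as an excess over all genes. The median of the 66 was -0.15, beside 0.010 over all genes. Among 34 upstream genes 3 fell (8.82%, Tnfsf11 included, where 5.61% of all genes fell), all of them ligands or parts of a receptor. Ly96, which completes the receptor for endotoxin, was at -2.15 (SE 0.30, adjusted p = 0.0091), and its partner Cd14 at -1.28 (SE 0.25, adjusted p = 0.030). Tnfsf11, the RANK ligand that drives alveolar growth, was at -1.82. The Tnfsf11 probe cleared background on no Lgr5-positive array and was kept only through the Lgr5-negative ones, so its call gives no support. In the Cy5 channel it read 3.51-fold lower, with Lgr5-positive signals that were not well above background. No adaptor or ubiquitin enzyme of the list passed, among them Irak1, Ripk1, Cyld and Map3k7. At an unadjusted p under 0.05 in the blocked limma fit, 10 of the 34 were lower and 0 higher. Of all 15680 genes, 1960 were lower and 1387 higher at that limit. Irak1, Ticam1, Rnf31 and Tank were among the 10, each lower in all 3 pairs.

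Among 32 further target genes 7 fell (21.9%) and 2 rose with the block, where 5.61% of all genes fell and 2.1% rose. Il15 is among the 7, so that share is not read as an excess either. Bmp2, a morphogen, fell by 2.75 (SE 0.15, adjusted p = 6.3e-04), and F3, tissue factor, by 1.11 (adjusted p = 0.0086). The endothelial selectins Sele and Selp were at -1.73 and -1.28 (adjusted p = 0.010 and 0.015). The Sele probe was well above background on only 1 Lgr5-positive array. Tnfaip6, a matrix-binding protein, was at -1.04 (adjusted p = 0.0068) and Zc3h12a, an RNase that degrades cytokine transcripts, at -0.85 (adjusted p = 0.020). Il15 likewise had no Lgr5-positive array well above background and was kept only through the Lgr5-negative ones, so its call gives no support. It read 2.81-fold lower in the Cy5 channel. Ptx3, a soluble pattern receptor, rose by 1.41 (SE 0.15, adjusted p = 0.0038) and Lcn2, an iron-binding defence protein, by 0.62 (SE 0.12, adjusted p = 0.032). Nos2, Sod2, Irf1 and Gadd45b, also targets, lay between -0.18 and 0.24 and did not pass.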

How the data were processed

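RNA of 6 samples was measured on 6 Agilent 2-colour arrays of 1 slide. The authors deposited scanner files from Agilent Feature Extraction, version 11.0 in the submitters' processing notes and 11.0.1.1 per the file headers. The deposited files hold the scanned intensity of spot and local background per channel and the software's log10 ratio of Cy5 over Cy3, background-subtracted and dye-normalized per the file headers. A deposited table for the series holds log2 ratios centred per probe, with the scale and direction of the scanner's (correlation 0.92 to 0.95 per array, column medians -0.048 to 0.031); the origin of its remaining differences is not known.

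Median intensities were corrected with normexp (offset 50) and normalized by loess within arrays in limma 3.58.1 under R 4.3.3, control and outlier-flagged spots having no weight. Probes well above background in Cy5 on at least 3 arrays were kept, and the brightest probe stood for a gene; 10 genes with an outlier-flagged spot were left out. Groups were compared with lmFit and eBayes, two-sided, with Benjamini-Hochberg adjustment over 15680 genes, first with the group as the only term, then with the replicate number added as a block. Deviations from the group means correlated at 0.81, 0.819 and 0.675 between same-numbered arrays, which are neighbours on the slide; what makes them alike was not tested. The Cy5 folds of Tnfsf11 and Il15 come from that channel after Aquantile normalization, with Lgr5-positive signals as measured. They are open to dye bias, since no dyes were swapped. Array values are given for members past the test in either fit, those without overlap and with a fold change of at least 1, and Rela, Nfkb1 and Tnfrsf1a. Of the other pathway genes the rule named 10; Cd14 and Lcn2, and those that did not pass, were named after their values were seen. Members and lists were chosen with earlier results of these data known. Other normalizations, filters, weights and omissions were tried as alternatives. The number of arrays limits the precision.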

Additional observations from a re-analysis of the deposited data

How the results depend on the processing

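With the group alone 1 member passed, where 0.612% of all genes did. The count was 0 under median centring (0.0574% of all genes), scale normalization between arrays (0.0128%) and the scanner's log ratio (0.415%). It was also 0 with the deposited table (0.421%), probes well above background on all 6 arrays (0.341%) and eBayes with a trend (0.351%). It was 3 with array weights (1.99%) and 13 with the replicate block (7.72%), and ranged from 0 to 9 over the fits that left out an array or a pair. The share of all genes moved too, so a changed count alone is not a change particular to the members. The same limit holds for the blocked counts below, whose shares of all genes are not given. The count of other pathway genes was 0, with 3 under array weights, 12 with the replicate block and 0 to 4 with an array or pair left out. The blocked count of 13 members became 31 under median centring, 6 under scale normalization, 7 with the scanner's ratio, 8 with the deposited table, 1 with no replicate block and 6 to 18 with an array or pair left out; that of other pathway genes was 12, and 45, 7 with the scanner's ratio, 7 with the deposited table, 0 with no replicate block and 3 to 15 likewise. The members' median of -0.41 was -0.75 under median centring, where all genes shifted to -0.29. All 42 members were negative there, including the 9 that are positive in the main setting. Relative to all genes the median is -0.46 there, against -0.42. The members' median ranged from -0.68 to -0.27 with arrays or pairs left out. Nfkb1 turned to -0.20 under median centring in both fits and, with arrays or pairs left out, ranged from -0.11 (without Lgr5-positive replicate 3 or Lgr5-negative replicate 1) to 0.61, Rela to 0.039 in the Cy5 channel alone in both fits and, with arrays or pairs left out, from -0.21 to 0.034 (without Lgr5-negative replicate 3), and Tnfrsf1a likewise from -0.18 to 0.017 (without pair 3, also with the block), with 0.010 without Lgr5-negative replicate 2; none of these reversed values passed. Rela and Tnfrsf1a were each at -0.52 under median centring, and each passed in 1 of the 11 other blocked settings that kept all arrays. The causes were not tested. Of the blocked calls, Nfkbie, Tnfaip3, Ltb and Il33 passed in all 11 other settings that kept the arrays and without each pair, Cflar and Il1r1 in 10 settings, Csf3 in 9, Nfkbia, Tnip1, Traf1 and Il6 in 8, Vcam1 in 7 and Rel in 4 of 10. The slide could not be a block, since there was 1. Probes near background, such as those of Rel, Birc3 and Tnfrsf1b, limit what can be read from these genes.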
